A study of Homo sapiens with 12 samples.

Results

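The subject here is N4-acetylcytidine (ac4C) on the RNA of 43 human genes that copy DNA and drive the cell cycle. They were chosen by their known roles, with the deposited peaks already known, and their peaks are every interval that overlaps a gene's RefSeq span by 1 bp or more. That rule gave 163 of the 28047 peaks in the NAT10 knockdown list and 118 of the 34365 in the control list. Because these peaks chose the subject, their numbers are a description and carry no test. The cells were RBE, a human intrahepatic cholangiocarcinoma line. The sh-NAT10 cells carried a lentiviral hairpin against NAT10, the RNA cytidine acetyltransferase, and the sh-NC cells carried a control hairpin; the treatment notes describe puromycin selection for the sh-NAT10 line. Each arm had 3 immunoprecipitates, pulled down from fragmented RNA with an ac4C antibody, and 3 inputs, 12 libraries in all.

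Only 1 peak list per arm was analysed here, so no spread between replicates can be given and no arm is tested against the other. Read depth is unknown. The control list was recognised by its name, and the other list was taken as the knockdown list because no other arm remained. NAT10 level was not measured in these lists. Peaks lay on 6 of 7 biliary epithelial marker genes in both lists, with EPCAM the exception. They lay on 2 and 3 of 7 hepatocyte markers, 1 and 1 of 6 fibroblast markers and 3 and 3 of 5 immune markers in the knockdown and control lists. On 6 neuronal markers there were 6 knockdown peaks, on 3 genes, and 83 control peaks, on all 6, and what part this has in the counts that follow was not tested. In the lists as a whole the number of knockdown peaks was 81.6% of the number of control peaks.

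A chromosome is copied once per cycle. In G1 the origin recognition complex, CDC6 and CDT1 load the ring of MCM2 to MCM7 onto origins, and this step is called licensing. In S phase MCM10, CDC45 and the GINS proteins turn the ring into a moving helicase, and the polymerases alpha, delta and epsilon copy the strands with the clamp PCNA. Cyclins and their kinases, with RB1 and the E2F factors, set the timing, and the mitotic kinases and checkpoint proteins then part the copies. ac4C is an acetylated form of cytidine, and in RNA it is laid down by NAT10.

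Many of these genes are known E2F targets, so the RefSeq promoter windows, 250 bases before to 50 after a start, were searched for E2F site letters. The letters were TTTGGCGC, TTTCGCGC, TTTCCCGC and TTTGCCGC, on both strands, and matches on opposite strands may overlap. Of the 43 genes, 37 had at least 1 window, and 15 of these held a match (40.5%), against 33.3% of 60 other pathway genes and 5.40% of all 15843 protein-coding genes with a window. The matches fell on 6 of 8 licensing genes, 2 of 4 helicase activation genes, 5 of 12 polymerase and nucleotide genes, 2 of 8 cyclin and kinase genes and 0 of 5 mitotic genes. A match describes the sequence only. Shown next are 4 windows of GRCh38.p14, 5′ to 3′ on the gene's strand, with the matching letters in capitals, chosen to span the roles of helicase, loader, polymerase and regulator.
MCM6 (chr2:135876394-135876693, minus strand): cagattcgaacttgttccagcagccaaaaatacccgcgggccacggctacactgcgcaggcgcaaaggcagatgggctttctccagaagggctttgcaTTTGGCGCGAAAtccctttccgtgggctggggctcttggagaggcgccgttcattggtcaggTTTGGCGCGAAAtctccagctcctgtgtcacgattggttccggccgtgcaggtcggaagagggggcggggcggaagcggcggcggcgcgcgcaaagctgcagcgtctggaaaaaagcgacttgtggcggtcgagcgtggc
CDC6 (chr17:40287629-40287928, plus strand): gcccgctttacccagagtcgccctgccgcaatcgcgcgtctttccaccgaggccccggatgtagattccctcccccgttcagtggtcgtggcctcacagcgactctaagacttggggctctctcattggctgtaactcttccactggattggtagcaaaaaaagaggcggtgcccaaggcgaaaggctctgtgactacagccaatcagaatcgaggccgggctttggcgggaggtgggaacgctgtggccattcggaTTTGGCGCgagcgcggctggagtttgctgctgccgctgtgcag
POLE2 (chr14:49688165-49688464, minus strand): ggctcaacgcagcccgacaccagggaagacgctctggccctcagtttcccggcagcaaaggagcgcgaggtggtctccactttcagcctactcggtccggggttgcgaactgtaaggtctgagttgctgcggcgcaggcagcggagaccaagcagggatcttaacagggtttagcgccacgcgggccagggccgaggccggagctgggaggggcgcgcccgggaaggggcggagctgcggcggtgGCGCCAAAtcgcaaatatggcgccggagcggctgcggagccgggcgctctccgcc
E2F1 (chr20:33686336-33686635, minus strand): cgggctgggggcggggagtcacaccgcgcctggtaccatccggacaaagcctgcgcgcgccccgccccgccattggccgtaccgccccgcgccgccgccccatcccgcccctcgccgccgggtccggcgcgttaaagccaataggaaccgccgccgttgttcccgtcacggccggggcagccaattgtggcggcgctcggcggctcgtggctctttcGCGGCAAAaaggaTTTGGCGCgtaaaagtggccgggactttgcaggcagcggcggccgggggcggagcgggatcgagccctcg
In MCM6 each of the 2 capital runs holds a match on both strands. Of the 15 genes with a match, 14 had a peak, and 8 of these had more knockdown than control peaks and 2 had fewer. Of the 22 without a match, 20 had a peak, and the numbers were 13 and 4. Of all protein-coding genes with a peak, 33.3% had more knockdown peaks and 46.1% had fewer. The difference between the sets was not tested.

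A second set of windows is shown because a knockdown peak reaches into them while no control peak does. Capitals mark the bases under the peak.
AURKB (chr17:8210176-8210475, minus strand): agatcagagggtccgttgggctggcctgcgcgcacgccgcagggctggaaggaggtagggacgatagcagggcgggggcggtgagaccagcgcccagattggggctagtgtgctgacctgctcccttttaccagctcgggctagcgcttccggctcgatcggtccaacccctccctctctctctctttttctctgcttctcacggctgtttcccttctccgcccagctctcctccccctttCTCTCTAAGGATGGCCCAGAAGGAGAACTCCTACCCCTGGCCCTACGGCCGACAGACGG
PCNA (chr20:5119909-5120208, minus strand): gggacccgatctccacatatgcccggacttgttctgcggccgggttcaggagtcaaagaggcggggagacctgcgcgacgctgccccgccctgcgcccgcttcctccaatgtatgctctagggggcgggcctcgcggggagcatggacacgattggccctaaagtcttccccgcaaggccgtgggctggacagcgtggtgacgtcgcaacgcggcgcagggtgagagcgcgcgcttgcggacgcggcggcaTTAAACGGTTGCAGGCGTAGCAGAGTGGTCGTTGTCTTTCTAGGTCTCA
CDK6 (chr7:92836524-92836823, minus strand): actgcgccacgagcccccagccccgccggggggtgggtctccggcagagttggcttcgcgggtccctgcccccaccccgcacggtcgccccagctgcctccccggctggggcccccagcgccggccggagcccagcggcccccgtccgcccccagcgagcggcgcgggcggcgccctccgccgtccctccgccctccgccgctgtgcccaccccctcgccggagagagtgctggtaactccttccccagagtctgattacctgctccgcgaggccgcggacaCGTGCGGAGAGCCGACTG
AURKB encodes the kinase of the chromosomal passenger complex, and 59 bases of its window, 21 of them cytidines, lay under a 75 bp knockdown peak with a score of 10.79. The windows shown for AURKB and PCNA both belong to starts inside the gene span, not to its outer edge. In the PCNA window 49 bases, 9 of them cytidines, lay under a 100 bp knockdown peak with a score of 14.17, which the span of the antisense gene PCNA-AS1 also overlaps. The CDK6 peak lay on the opposite strand, overlaps the antisense gene CDK6-AS1 and covers 18 bases of the window. Score here and elsewhere is the authors' own value per peak. Its scale is unknown, so it serves only to place a peak within its own list. Where scores from both lists stand side by side below, their difference is not read as a difference between the arms.

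The knockdown list had more peaks on the 43 genes than the control list, and had them on more genes. A knockdown peak lay on 38 genes and a control peak on 34. Of the 38 genes, 6 had no control peak (15.8%), namely ORC1, CDC45, POLE2, POLE3, RPA2 and RRM2, against 17.4% of all protein-coding genes with a knockdown peak. Of the 34 genes, 2 had no knockdown peak (5.88%), namely CCNB1 and CCNE1, against 26.3% of all protein-coding genes with a control peak. GINS2, RFC1 and CCNA2 had no peak in either list, so 40 of the 43 had any (93.0%, against 54.4% of all protein-coding genes). In these lists a difference in RNA amount and a difference in acetylation cannot be told apart, nor can more cycling cells and more of these RNAs per cell. Sequencing depth of the lists was not tested.

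Counted gene by gene, 23 of the 40 genes had more knockdown than control peaks (57.5%), 8 had fewer (20.0%) and 9 had equal numbers. Among all 10915 protein-coding genes with a peak, 33.3% had more knockdown peaks and 46.1% had fewer. The median difference, knockdown minus control, was 1 peak for the 40 genes and 0 for all protein-coding genes. Counting a peak once for each gene it overlaps, the knockdown number was 138% of the control number on the 43 genes and 81.7% on all protein-coding genes. Without POLD1, which had the largest excess, it was 134%, and without the 3 genes of largest excess, POLD1, TOP2A and PLK1, it was 126%.

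**Figure D1:**
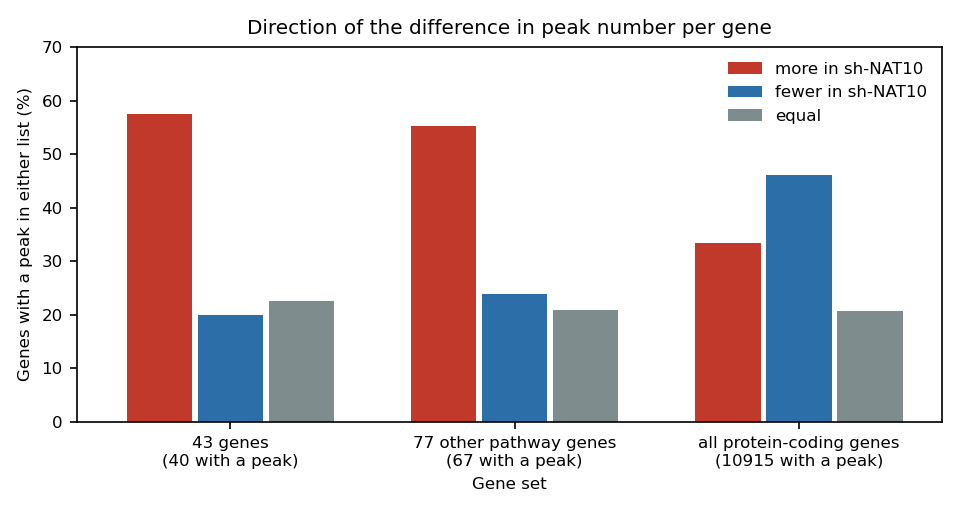
Share of genes with a peak in either list (y axis, %) that had more, fewer or equally many peaks in the sh-NAT10 list, for the 43 genes, 77 other pathway genes and all protein-coding genes (x axis). More knockdown peaks were found on 57.5%, 55.2% and 33.3% of the genes with a peak.

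The role groups differed in how far the arms stood apart. The 13 polymerase, clamp and nucleotide genes had 47 knockdown and 28 control peaks, with more on 9 genes and fewer on 1. The 6 mitotic and proliferation genes had 41 and 26, with more on 4 and fewer on 0. The 4 helicase activation genes had 7 and 2. The 10 licensing genes had 41 and 36, with more on 5 and fewer on 3. The 10 cyclins, kinases, RB1 and E2F1 had 27 and 26, with more on 3 and fewer on 4. Peaks lying side by side were counted singly, and the role groups were not recounted with close peaks merged. Merging peaks within 100 bp leaves no excess on RFC2 and PLK1 and little on POLD1. Differences between role groups were not tested.

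**Figure D2:**
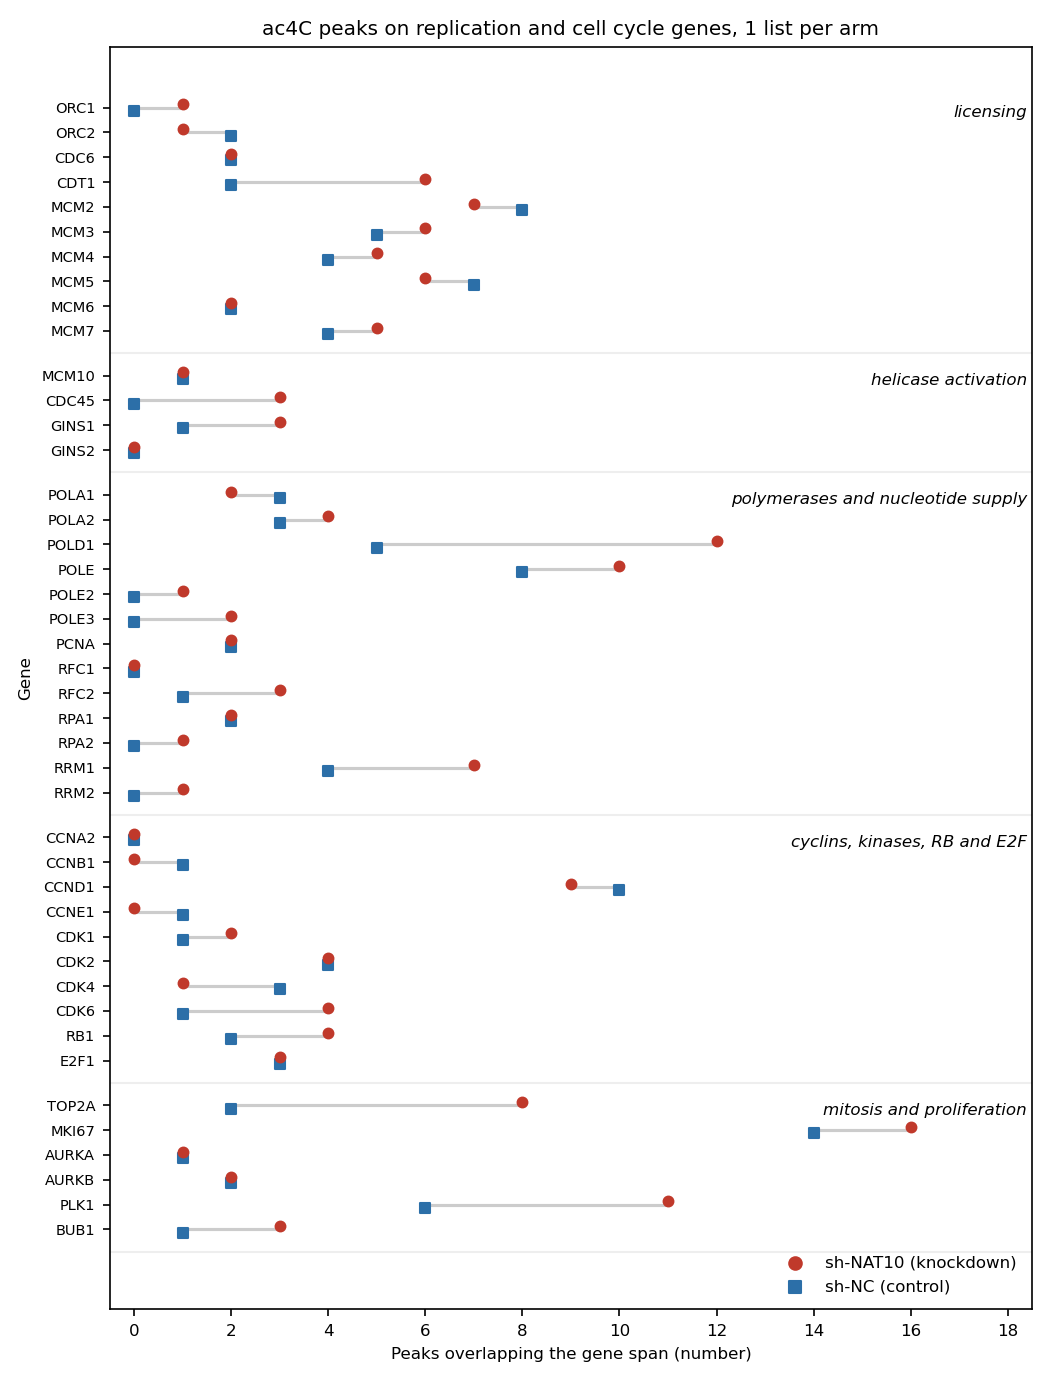
Number of peaks (x axis) on each of the 43 genes (y axis), by role, in the sh-NAT10 list (red circles) and the sh-NC list (blue squares). A grey line joins the lists; POLD1, TOP2A and PLK1 have the longest lines toward the knockdown side, with 12 against 5, 8 against 2 and 11 against 6 peaks. Some knockdown peaks on these genes lie within 100 bp of one another and are counted singly. With such peaks merged, no excess is left on PLK1 and little on POLD1.

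Among the loaders of the helicase, CDT1 (chr16:88803789-88809258) had 6 knockdown and 2 control peaks. Of the 6 knockdown peaks, 4 lay under a single control peak of 1706 bp, which begins 250 bp from the gene's start. Those 4 measured 244, 566, 25 and 50 bp, with scores of 12.74, 10.67, 10.21 and 11.40, and the control peak had a score of 13.36. The knockdown peaks thus outnumbered the control peaks but covered less of the gene, 1561 bp against 2332 bp. The knockdown peak with the highest score, 16.07, was a 50 bp interval that overlapped no control peak. A 626 bp peak at chr16:88806514-88807139 had the same edges in both lists, with scores of 15.53 in the knockdown list and 11.51 in the control list. After overlapping peaks of both lists were joined, CDT1 had 3 loci, of which 2 held both lists and 1 the knockdown list only.

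The origin recognition subunits and CDC6 had few peaks and shared none. ORC1, the largest subunit, had 1 knockdown peak, a 629 bp interval at chr1:52388637-52389265 with a score of 26.70, above 91.5% of its list, and 0 control peaks. ORC2 had 1 knockdown peak (649 bp, score 11.49) and 2 control peaks (75 and 50 bp, scores 19.77 and 10.65). CDC6, the ATPase that brings CDT1 and the ring to the origin, had 2 peaks in both lists. Its knockdown peaks began 1509 and 1559 bp from the start, and its control peaks at 6175 and 14043 bp, so no peak of CDC6 overlapped one of the other list.

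The subunits of the MCM ring carried peaks in both arms at near equal numbers, 31 knockdown and 30 control peaks over 6 genes. MCM2 had 7 and 8 peaks, MCM3 6 and 5, MCM4 5 and 4, MCM5 6 and 7, MCM6 2 and 2, and MCM7 5 and 4. No subunit differed by more than 1 peak. The best-scoring peak of the licensing group was the same interval in both lists. It is a 1689 bp peak on MCM4 that begins 6399 bp from the start, with a score of 88.27 in the knockdown list and 56.77 in the control list. These scores stood above 99.0% of the knockdown list and 98.4% of the control list. MCM4 also had a 25 bp peak of identical edges, with scores of 14.97 in the knockdown list and 10.43 in the control list. Another shared stretch ended at the same base, with 3382 bp in the knockdown list and 1824 bp in the control list. The MCM4 peaks found in 1 list measured 25 and 75 bp in the knockdown list and 50 bp in the control list.

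Of 30 overlapping pairs of peaks on the licensing genes, 4 had both edges in common and 14 had 1 edge. On MCM2 a knockdown peak of 4803 bp and a control peak of 75 bp began at the same base, 1038 bp from the start. A 1186 bp peak at chr3:127605042-127606227 was identical in both lists, with scores of 18.59 in the knockdown list and 36.06 in the control list. Next to it MCM2 had a peak of 1739 bp in the knockdown list and 1639 bp in the control list, again from the same first base. Toward its end a 1444 bp knockdown peak, score 14.65, overlapped a 1769 bp control peak, score 12.01. On the opposite strand of MCM2 lay 2 knockdown peaks and 1 control peak. Of the 7 joined loci on MCM2, 5 held both lists.

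MCM5 had 3 loci of each kind, in both lists, in the knockdown list only and in the control list only. Its highest score was 15.64 in the knockdown list and 26.23 in the control list, on peaks of 333 and 308 bp that began at the same base. Neighbouring wide peaks measured 3185 and 1857 bp in the knockdown list, and 3235 and 1707 bp in the control list. Control peaks at chr22:35410725-35410899 and chr22:35423189-35423363, with scores of 21.96 and 20.28, had no knockdown counterpart. A knockdown peak of 3156 bp, with a score of 13.07, had no control counterpart. On MCM3 only the knockdown list had a peak at chr6:52273279-52273763, with a score of 30.17. On MCM6 a peak that begins 3725 bp from the start measured 3875 bp in the knockdown list and 3900 bp in the control list, with scores of 26.33 and 13.76. MCM7 carries the microRNA genes MIR25, MIR93 and MIR106B in its span, and none of its 9 peaks overlapped them.

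Among the factors that fire the helicase, CDC45, which rides with the ring as part of the moving helicase, had 3 knockdown peaks and 0 control peaks. They measured 373, 152 and 285 bp and had scores of 10.96, 13.83 and 13.91. GINS1 had 3 knockdown peaks and 1 control peak. A 50 bp knockdown peak at chr20:25424557-25424606 had a score of 37.75, above 95.5% of its list, with no control peak there. A 15693 bp knockdown peak, score 12.95, also overlapped no control peak, but it ended within 100 bp of the next knockdown peak. That next peak, of 2957 bp, overlapped the control peak of 75 bp. MCM10 had 1 peak in both lists, and these lay 42733 and 30964 bp from the start in the knockdown and control lists.

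POLD1, the catalytic subunit of polymerase delta, had the largest excess of the 43 genes, with 12 knockdown and 5 control peaks. Many of these 12 lay within 100 bp of another knockdown peak, so 12 is not a number of separate places. With peaks within 100 bp merged, most of the excess on POLD1 is gone and the lists are nearly equal there. All 5 control peaks overlapped a knockdown peak. The first peak on the gene began at the same base in both lists and measured 2835 bp with a score of 21.54 in the knockdown list, and 2860 bp with a score of 15.52 in the control list. Just past it lay 3 knockdown peaks of 99, 25 and 50 bp with no control counterpart. A 3216 bp control peak, score 12.48, then faced knockdown peaks of 298 and 2734 bp, with scores of 23.77 and 12.47. The remaining unmatched knockdown peaks measured 1593, 245 and 1035 bp, so 6 of the 12 overlapped no control peak. In joined loci POLD1 had 4 in both lists, 6 in the knockdown list only and 0 in the control list only. The knockdown peaks covered 11412 bp and the control peaks 8760 bp. A 2264 bp peak near the gene's end was identical in both lists with scores of only 0.74 in the knockdown list and 0.81 in the control list.

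**Figure D3:**
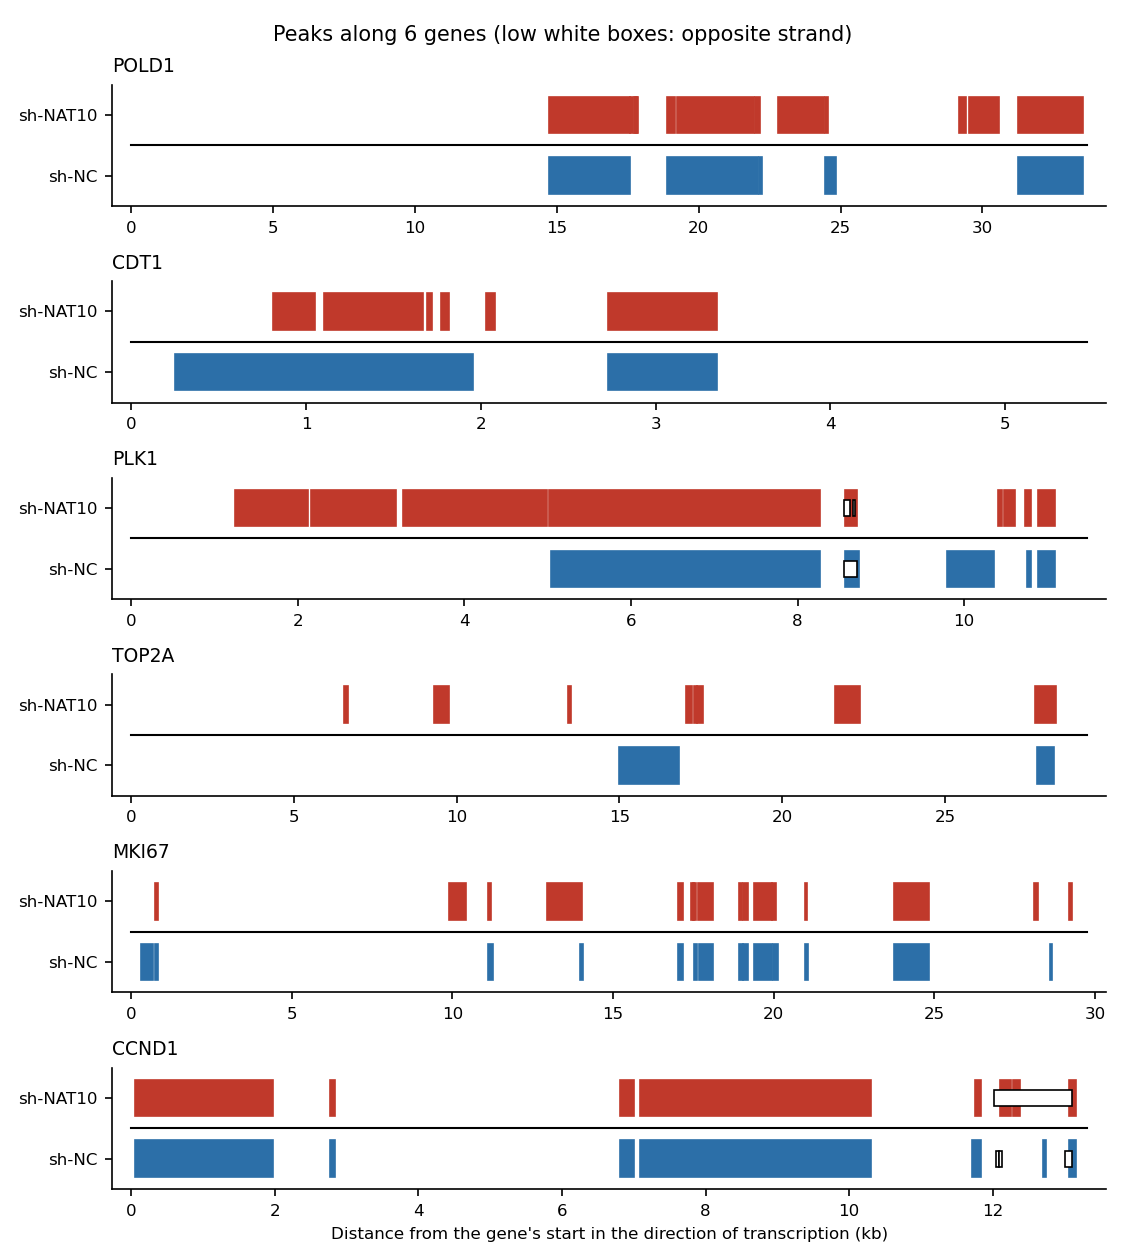
Peaks along 6 genes, with the distance from the gene's start on the x axis (kb), the sh-NAT10 list above the line and the sh-NC list below it; low white boxes lie on the opposite strand, and very narrow peaks are drawn at a minimum width. On CCND1 5 peaks have the same edges in both lists, and on TOP2A 7 of the 8 knockdown peaks overlap no control peak.

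All 3 subunits of polymerase epsilon in the list had more knockdown than control peaks. POLE, the catalytic subunit, had 10 knockdown and 8 control peaks, in 14 joined loci of which 4 held both lists, 6 the knockdown list only and 4 the control list only. POLE2, an accessory subunit, had 1 knockdown peak of 5071 bp with a score of 19.33 and 0 control peaks. POLE3, a histone-fold subunit, had 2 and 0. Its other peak measured 125 bp and had a score of 12.45. Its 776 bp peak at chr9:113408960-113409735 had the highest score of this group in the knockdown list, 50.79, above 97.4% of that list. The POLE2 peak also overlaps the pseudogene STK16P1.

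Polymerase alpha, which lays down primers, was mixed. POLA1 had 2 knockdown and 3 control peaks, among them a 16501 bp peak identical in both lists with scores of 49.38 in the knockdown list and 15.34 in the control list. This peak contains the pseudogene EEF1B2P3, so its assignment is uncertain. The other POLA1 peaks had no counterpart and measured 579 bp in the knockdown list, and 9872 and 25 bp in the control list, the last on the opposite strand. POLA2 had 4 and 3 peaks. Its knockdown peaks of 5006, 409 and 364 bp and its 50 bp control peak also overlap LOC105369344, so their assignment is uncertain too. Both lists had a peak that begins 301 bp from its start, 50 bp wide in the knockdown list and 75 bp in the control list.

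The clamp and the proteins around it had few peaks. PCNA had 2 in both lists, and a 191 bp knockdown peak at chr20:5118656-5118846 spans both control peaks, of 25 and 116 bp. RFC2, a subunit of the clamp loader, had 3 knockdown peaks and 1 control peak. These 3 lay in a row, each within 100 bp of the next, so RFC2 has no excess once they are merged. RPA1, which coats single-stranded DNA, had 2 in both lists, all of which also overlap LOC105371755. The RPA1 partner RPA2 had 1 knockdown peak of 50 bp with a score of 11.70 and 0 control peaks.

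Ribonucleotide reductase makes the deoxynucleotides that the polymerases use. RRM1, its large subunit, had 7 knockdown and 4 control peaks, and the best control peak of the group was on it. That peak, 1062 bp at chr11:4122139-4123200 with a score of 56.03, above 98.4% of the control list, had no counterpart in the knockdown list. The highest knockdown score on RRM1 was 16.55, on a 7866 bp peak that contains a 3310 bp control peak with a score of 12.41. Knockdown peaks of 3624, 379, 50, 334 and 25 bp and a control peak of 4070 bp overlapped no peak of the other list. Those of 3624, 379 and 50 bp lay in a row, each within 100 bp of the next. The 334 bp peak began at the base after the end of the 4070 bp control peak. Of the 9 joined loci on RRM1, 2 held both lists, 5 the knockdown list only and 2 the control list only. RRM2, the small subunit, had 1 knockdown peak of 100 bp with a score of 18.17, which begins 805 bp from the start, and 0 control peaks.

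The cyclins stood apart from one another. CCND1, the G1 cyclin, had 9 knockdown and 10 control peaks, and 5 of them had identical edges in both lists. Of these 5, the highest score was on a 3227 bp peak at chr11:69648237-69651463, with 30.29 in the knockdown list and 24.60 in the control list. A 200 bp peak next to it had scores of 28.12 in the knockdown list and 13.04 in the control list, and a 75 bp peak had 13.82 and 19.12. The best control peak on CCND1, 100 bp with a score of 43.27, lay on the opposite strand, within a 1088 bp knockdown peak with a score of 12.80. Knockdown peaks of 150 and 100 bp near the gene's end had no control counterpart. CCNE1, the cyclin of S phase entry, had 0 knockdown peaks and 1 control peak of 4103 bp with a score of 21.33. CCNB1, the mitotic cyclin, had 0 and 1, a 3440 bp peak with a score of 17.05. The CCNE1 and CCNB1 peaks are wide intervals, and without peaks over 1000 bp neither gene has a peak in either list.

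The cyclin-dependent kinases differed in direction. CDK6, a partner of the D-type cyclins, had 4 knockdown peaks and 1 control peak. A 100 bp peak at chr7:92833113-92833212 was identical in both lists, with scores of 26.30 in the knockdown list and 12.03 in the control list, and a 100 bp knockdown peak at chr7:92774704-92774803 had the highest score of this group, 66.35, above 98.4% of its list. CDK4, the other such kinase, had 1 knockdown and 3 control peaks. Its knockdown peak lay on the opposite strand within the overlapping gene TSPAN31, so on its own strand CDK4 had 0 knockdown and 2 control peaks, of 50 bp each, with scores of 10.82 and 15.32. CDK1, the mitotic kinase, had 2 and 1 peaks. CDK2 had 4 in both lists, with 2 on each strand in both.

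RB1, the repressor that cyclin-kinase complexes inactivate, had 4 knockdown and 2 control peaks. Its peaks at the gene's start began at the same base in both lists but measured 29090 bp in the knockdown list and 100 bp in the control list, with scores of 11.59 and 14.20. The 29090 bp peak also overlaps PCNPP5 and PPP1R26P1. Knockdown peaks of 1117 and 25 bp, with scores of 19.61 and 19.80, had no control counterpart. A 193 bp peak near the end was shifted between the lists and had scores of 12.25 in the knockdown list and 11.95 in the control list. E2F1, the factor RB1 binds, had 3 in both lists, and all of them overlapped. There too the peak nearest the start had the same outer edge, with widths of 5712 bp in the knockdown list and 100 bp in the control list.

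In the mitotic group no gene had fewer knockdown than control peaks. TOP2A, the topoisomerase that untangles sister chromatids, had 8 knockdown and 2 control peaks, and 1 knockdown peak overlapped a control peak. A 75 bp knockdown peak at chr17:40404391-40404465 had its highest score, 24.50, and its control scores were 11.62 and 11.46. The other unmatched knockdown peaks on TOP2A measured 768, 194, 25, 211, 467 and 132 bp. Those of 194, 25 and 211 bp lay in a row, each within 100 bp of the next, and the rest were spread over the gene. The unmatched control peak on TOP2A measured 1849 bp and fell between the unmatched knockdown peaks. The shared place was near the gene's end, with 642 bp in the knockdown list and 517 bp in the control list. PLK1, the polo-like kinase, had 11 and 6 peaks. Many of its knockdown peaks lay within 100 bp of the next, and once such peaks are merged PLK1 has no excess. On PLK1 3 knockdown peaks of 886, 1030 and 1737 bp in the first part of the gene had no control counterpart, and a 567 bp control peak had no knockdown counterpart. The next peak measured 3247 bp in the knockdown list and 3222 bp in the control list, with scores of 14.58 and 12.36. The highest knockdown score on PLK1, 28.06, was on a 75 bp peak that overlaps a 50 bp control peak with a score of 10.47. The highest control score, 24.36, was on a 175 bp peak whose knockdown partner, 150 bp, had 23.08. Both lists also had peaks on the opposite strand of PLK1, 2 and 1.

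BUB1, a spindle checkpoint kinase, had 3 knockdown peaks and 1 control peak. Its 1269 bp knockdown peak at chr2:110655791-110657059 had the highest score of the mitotic group, 46.50, and no control counterpart. Another of its knockdown peaks, 3248 bp wide, contains the small nucleolar RNA gene SNORD132. MKI67, the proliferation marker Ki-67, had the most peaks of all 43 genes, 16 in the knockdown list and 14 in the control list. Of its 18 joined loci 12 held both lists, 4 the knockdown list only and 2 the control list only. The peak that begins 737 bp from its start had a score of 26.99 in the knockdown list and 28.87 in the control list, the highest in both lists for this gene. AURKA had the same 150 bp peak in both lists, with scores of 12.96 and 10.97. AURKB had 2 peaks in both.

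Peak for peak, 85 of 163 on the knockdown side met a control peak of the same strand (52.1%, 95% Wilson interval 44.5 to 59.7). On the control side 85 of 118 met a knockdown peak (72.0%, 63.3 to 79.3). On all protein-coding genes the shares were 54.9% and 45.3%. The control peaks of the mitotic group overlapped in 22 of 26 cases and those of the polymerase group in 17 of 28. The intervals cover counting error only and treat peaks as independent, which they are not.

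Joining overlapping peaks removes the effect of 1 wide peak facing several narrow ones that it overlaps. It does not join peaks that lie side by side, so a run of close peaks in 1 list still counts as several loci. On POLD1 the knockdown peaks of 99, 25 and 50 bp just past a shared peak thus stayed separate loci. The 43 genes then had 187 loci, of which 76 held both lists, 78 the knockdown list only (41.7%) and 33 the control list only (17.6%). On all protein-coding genes 27.8% of loci were in the knockdown list only and 40.9% in the control list only. By loci 25 of the 40 genes had more in the knockdown list and 5 had fewer, against 32.5% and 45.3% of protein-coding genes with a peak. The polymerase group had 30 loci in the knockdown list only and 11 in the control list only, the mitotic group 19 and 4, and the licensing group 14 and 12.

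**Figure D4:**
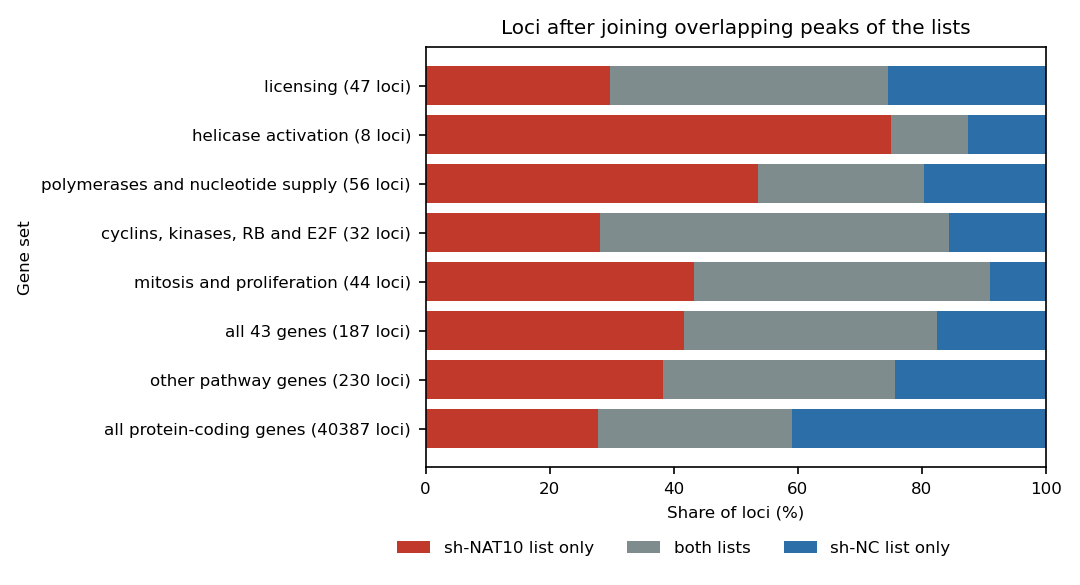
Share of joined loci (x axis, %) in the sh-NAT10 list only (red), both lists (grey) and the sh-NC list only (blue), for each role group, the 43 genes, the 77 other pathway genes and all protein-coding genes (y axis, with the number of loci). The red part is 41.7% for the 43 genes and 27.8% for all protein-coding genes.

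The peaks on the 43 genes were much like other peaks in score. The median score was 12.76 in the knockdown list and 12.56 in the control list, and the highest were 88.27 and 56.77. A score of 20 or more was reached by 24 knockdown peaks (14.7%) and 15 control peaks (12.7%), against 14.7% and 11.7% of peaks on all protein-coding genes. Median widths were 245 bp and 175 bp, against 163 bp and 175 bp on all protein-coding genes. Peaks over 10000 bp were fewer, 3 of 163 knockdown and 1 of 118 control peaks. On all protein-coding genes they were 2067 of 25027 and 3330 of 30411. All intervals are single blocks, and a width can therefore include introns. In the 42 genes whose strand could be set, 7 knockdown and 8 control peaks lay on the opposite strand, and 12 and 6 peaks also overlapped another gene.

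Position along the gene was read from peaks of up to 1000 bp on the gene's own strand and in no other gene. The last 10% of the span held 16 of 103 knockdown peaks (15.5%, 95% Wilson interval 9.79 to 23.8) and 11 of 71 control peaks (15.5%, 8.88 to 25.7). On all protein-coding genes it held 22.9% and 31.1%. The first 10% held 8 of the 103 knockdown peaks (7.77%, 3.99 to 14.6) and 9 of the 71 control peaks (12.7%, 6.81 to 22.4), and 8.64% and 6.50% on all protein-coding genes. The intervals cover counting error only, and many of these peaks share a gene, so the shares are given as a description. The spans include introns, and alternative starts lengthen some of them, so these positions are not positions in the mature RNA.

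Peaks at the border of the rule were few. Only the 4241 bp peak on CDK2, present in both lists with scores of 0.29 and 0.16, crosses the edge of a span. Within 1000 bp outside a span lay 2 peaks in both lists. A 3509 bp peak of identical edges lay 126 bp upstream of CDK4, with scores of 31.70 in the knockdown list and 36.12 in the control list. The others lay 807 bp from POLE in the knockdown list and 973 bp from MCM7 in the control list.

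The other genes of the pathway went the same way. Of 77 further replication and cell cycle genes, 67 had a peak, with more knockdown peaks on 37 (55.2%) and fewer on 16 (23.9%). They held 179 knockdown and 147 control peaks, and the median difference was 1 peak. The largest excess was on E2F8, an atypical E2F repressor, with 7 knockdown and 0 control peaks, followed by ANLN and TPX2 with 8 and 3 each. The largest deficits were on E2F3 with 2 and 7, on CDC25B, a phosphatase that activates CDK1, with 6 and 10, and then on FOXM1 with 5 and 8, TIMELESS with 1 and 4 and RPA3 with 0 and 3. Knockdown peaks lay on 65 of them, and 18 of these lacked any control peak (27.7%, against 17.4% of all protein-coding genes), namely E2F8, KIF11, CDC7, DONSON, ORC6, PRIM2, CCNE2, CDC25A, CDC25C, CKS2, DNA2, E2F2, GINS3, ORC5, POLD3, TICRR, TIPIN and WDHD1. Control peaks lay on 49, and 2 of these lacked any knockdown peak (4.08%, against 26.3% of all protein-coding genes), RPA3 and UBE2C.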

How the data were processed

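Human RBE cells with a NAT10 or a control hairpin were profiled by ac4C immunoprecipitation and sequencing. The submitters' processing notes name hg38, Bowtie2 2.4.1 and fastp 0.20.1. How peaks were called, at which threshold, with or without inputs, and from pooled libraries or not was not given in the sources used here. Per arm, the authors deposited 1 list in a 12-column format, with a score per peak of unstated scale. The block width is in bp.

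Peaks were assigned with bedtools 2.31.1 to RefSeq gene spans (GRCh38.p14) by 1 bp or more on either strand, and peaks were matched between lists by 1 bp or more on the same strand. Exons were not analysed here. The strand came from the RefSeq promoter table for 37 genes and from most of the gene's peaks for 5; CDK2 was tied. Loci join overlapping peaks of both lists. All 43 genes are named. In each role group the peaks of the genes with the largest differences in either direction, the best-scoring peaks and the genes with peaks in 1 list are described. Of 77 other pathway genes, those in 1 list and the 3 largest differences each way are named. The genes, lists and rules were chosen with earlier results of these data known. Overlap and assignment were tested on simulated data, with 4739 of 4739 shifted control peaks and 201 of 201 planted genes found. Python 3.11.15, pandas 2.3.3, SciPy 1.17.1 and matplotlib 3.10.9 were used.

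The settings tried were score thresholds of 20 and 10, lists of equal length, peaks in 1 gene, peaks up to 1000 bp, the gene's own strand, merging within 100 bp, 50% reciprocal overlap, overlap on either strand, and joined loci. For lists of equal length the control list was cut to its top-scoring peaks, and the knockdown list was left whole. The threshold of 10 and the loci were added after seeing the data.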

Additional observations from a re-analysis of the deposited data

How the results depend on the processing

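No paired analysis was possible because each arm has 1 peak list that does not separate the replicates, so leaving out a replicate was not possible either. Of 68 values recomputed under other settings, 53 stayed near the reported value and 15 moved. Peaks and genes were recounted under 8 settings (not under 50% reciprocal overlap or overlap on either strand, which change only the shares of overlapping peaks). In these 8 the knockdown list held more peaks on the 43 genes than the control list, and more of the genes had an excess of knockdown peaks than a deficit. For lists of equal length only control peaks were dropped, and those on the 43 genes went from 118 to 100. That setting could only keep or widen the direction, so it is no check on it. At a score of 20 or more, 24 knockdown and 15 control peaks remained; 12 genes had knockdown peaks only, 4 had control peaks only, 14 had more knockdown peaks and 5 had fewer, and 20.8% of knockdown and 33.3% of control peaks overlapped the other list. With peaks up to 1000 bp, 1 gene had control peaks only, and the overlapping shares were 37.9% and 54.2%. With 50% reciprocal overlap they were 36.8% and 50.8%. The genes with fewer knockdown peaks, 8 in all, became 4 with lists of equal length and 5 with joined loci. With peaks within 100 bp merged, the counts were 125 and 97, with more knockdown peaks on 24 genes and fewer on 8. Depth and score scale are unknown, so small differences of 1 peak per gene have no error. The cause of these changes was not tested beyond what each setting leaves out by construction. Except for joined loci, values over all protein-coding genes are not given under these settings. The values therefore do not tell whether a count or share is particular to the 43 genes.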

Other observations

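Where a knockdown and a control peak overlapped on the 43 genes, their edges often coincided to the base. Of 94 such pairs, 19 had both edges in common (20.2%) and 46 had 1 (48.9%). On all protein-coding genes 30.7% of 15145 pairs had both edges in common and 40.0% had 1. Where the widths on the 43 genes differed, the knockdown peak was the wider in 43 pairs and the control peak in 30. On all protein-coding genes these numbers were 5421 and 4880. The narrowest peak on the 43 genes was 25 bp in both lists, and many measured 25, 50, 75 or 100 bp. Whether edges were set in fixed steps was not tested, so their coincidence is no measure of precision.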
